A study of Mus musculus with 7 samples.

Results

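The genes described here are 41 mouse genes of sterol and fatty acid synthesis, listed by symbol. They comprise 5 genes that control the SREBP transcription factors, 18 enzymes of sterol synthesis, 11 enzymes of fatty acid synthesis, elongation and desaturation, 2 enzymes at the entry to glycerolipid synthesis, and 5 genes of sterol transport and the LXR receptors. A probe named through its accession was found for 40 of the 41, the exception being Acat2, and the brightest probe well above background on at least 3 of 7 arrays stood for each gene. All 40 passed this filter, in fact on each of the 7 arrays, and they were read from 1 fit over 23678 genes.

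RNA of the heart apex was hybridised to 1 single-colour Agilent array per mouse. The 3 double knockout mice (DKO) had loxP sites around exons 6 and 7 of Akt1 and exons 5 and 6 of Akt2, together with the tamoxifen-inducible recombinase MerCreMer driven by the αMHC promoter, which is active in cardiomyocytes, so that endothelial, stromal and immune cells of the same tissue keep both genes. The 4 control mice carried heterozygous MHC-mercremer without loxP-flanked Akt alleles. Both groups were C57Bl/6 males of 3 months, were given hydroxytamoxifen on 5 days, at 500 µg daily, and hearts were taken 10 days later, so recombinase and drug are shared by the groups. The comparison asks how cardiac transcripts differ after loss of both kinases.

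The arrays lay on 1 slide and were read in 1 scan, with 50.9% to 55.7% of probes well above background and no saturated spot; their number, 4 against 3, limits the precision. The labels were checked on the targeted genes: the brightest Akt2 probe had a mean log2 signal of 13.7 in control and 11.6 in DKO arrays, a 4.13-fold fall (adjusted p = 0.000203 over all probes by limma), whereas both Akt1 probes were slightly higher in the DKO arrays (0.17 and 0.47) and did not pass the test. Whether the Akt1 probes lie in the deleted exons was not examined, so they check nothing about the deletion. All 10 cardiomyocyte markers were measured and none of them passed the test, with 3 higher and 7 lower in the DKO arrays (median -0.063). Groups did not overlap for 3 of the lower ones, Ttn (-0.32), Ryr2 (-0.38) and Actc1 (-0.24). That is 30% of the markers, beside 12.5% of all genes lower without overlap.

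Sterols and fatty acids are both built from cytosolic acetyl-CoA. SREBP transcription factors are held in the endoplasmic reticulum by SCAP and the INSIG proteins when sterols are plentiful; when sterols fall, SCAP escorts them to the Golgi, where they are cut and released to the nucleus. SREBP-2, from Srebf2, is known mainly for sterol synthesis genes, and SREBP-1c, one product of Srebf1, mainly for fatty acid synthesis genes. The LXR receptors respond to oxidised sterols and are known to induce sterol exporters and Srebf1. In liver, insulin acting through AKT is known to raise SREBP-1c, while the adult heart takes up most of its fatty acids rather than making them.

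Of the 40 measured genes 2 rose in the DKO hearts, Fdft1 and Abca1, and none fell at an adjusted p below 0.05 (limma, Benjamini-Hochberg over all 23678 genes). That is 5.0% of the genes beside 4.70% of all genes tested (2.41% higher in the DKO hearts and 2.29% lower), a share near the background. Without adjustment, 6 were higher and 9 were lower at p below 0.05, which is 37.5% beside 25.5% of all genes. The 3 DKO arrays lay entirely above the 4 control arrays for 7 genes and entirely below them for 11, together 45% beside 25.7% of all genes. The median difference of the 40 genes was -0.061 on the log2 scale, against -0.020 over all genes and 0.023 over the 14722 tested genes with a symbol. The roles differed in their medians: the enzymes of sterol synthesis lay mostly lower and those of fatty acid synthesis mostly higher in the DKO hearts, as the heat map of all members by array shows.

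**Figure D1:**
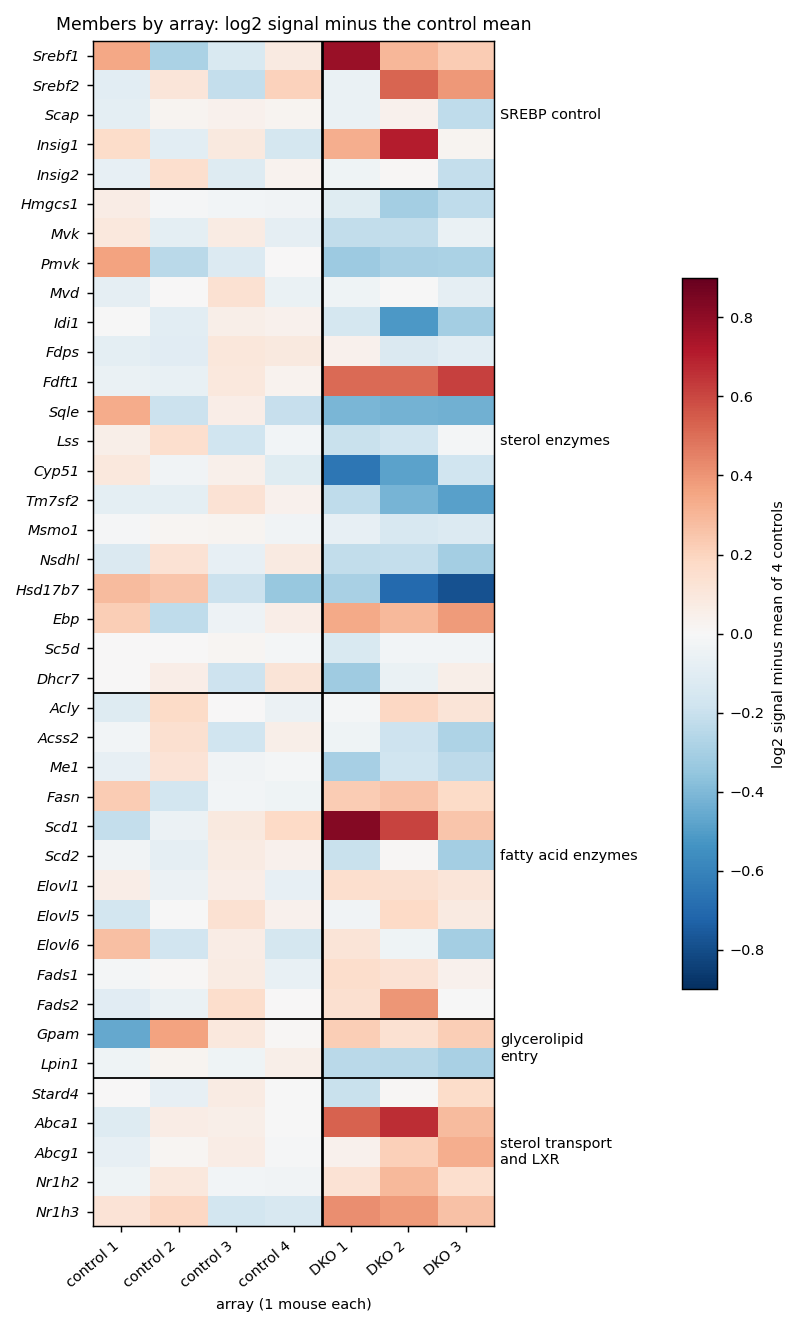
Heat map of the 40 measured genes (rows, grouped by role) in the 4 control and 3 DKO arrays (columns), coloured by normalized log2 signal minus the mean of the 4 controls for that gene. The DKO columns are mainly blue in the block of 17 sterol enzymes, apart from the red rows of Fdft1 and Ebp, and mainly red in the rows of sterol transport and LXR.

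Of the 17 measured sterol enzymes, 15 had a lower mean in the DKO hearts and 2 a higher one, Fdft1 and Ebp. Under quantile normalization and on the authors' deposited values, 13 were lower, with Lss and Mvd then slightly above 0. Over all genes tested, 46.9% had a higher mean in the DKO hearts, and 54.1% of the 14722 with a symbol did. The median difference of the 17 was -0.17, with a range from -0.59 to 0.55. Arrays of the groups did not overlap for 9 enzymes that were lower, beside 12.5% of all genes, and for 2 that were higher, beside 13.2%. These counts rest on the brightest probe of each gene. On second probes the groups instead overlapped for Pmvk, Msmo1 and Ebp, and instead did not overlap for Hsd17b7 and Lss. Only Fdft1 passed the adjusted test, so the lower values of the other enzymes are given as values and not as falls. In bulk tissue, fewer cells of a type and less RNA per cell cannot be told apart.

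The first steps make isopentenyl diphosphate, the building block of all isoprenoids. Hmgcs1, which makes HMG-CoA, had a log2 signal of 11.84, 11.77, 11.75 and 11.75 in the control arrays and 11.67, 11.47 and 11.55 in the DKO arrays. All 3 DKO arrays were below all 4 controls, with a difference of -0.21 ± 0.076 (SE; adjusted p = 0.143, limma). Mevalonate kinase (Mvk) and mevalonate diphosphate decarboxylase (Mvd) differed by -0.17 ± 0.087 and -0.041 ± 0.079, and their groups overlapped. Phosphomevalonate kinase (Pmvk) read 12.18, 11.57, 11.69 and 11.82 in controls and 11.49, 11.52 and 11.53 in DKO arrays. The DKO arrays lay close together under a wide control group, in which replicate 1 was highest, and the difference of -0.30 ± 0.14 had an adjusted p of 0.239 (limma). On a second, dimmer Pmvk probe the groups overlapped (-0.19 ± 0.11). Idi1, the isomerase that gives the second isoprene unit, read 8.81, 8.72, 8.86 and 8.85 in controls against 8.65, 8.29 and 8.50. It was lower in every DKO array, with a difference of -0.33 ± 0.10 (adjusted p = 0.108, limma). Farnesyl diphosphate synthase (Fdps) stood at -0.060 ± 0.089 with overlapping groups.

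Fdft1 encodes squalene synthase, which joins farnesyl units in the step that commits the pathway to sterols. Its log2 signal was 12.06, 12.06, 12.23 and 12.16 in the control hearts and 12.64, 12.64 and 12.75 in the DKO hearts. Every DKO array was above every control, and Fdft1 rose by 0.55 ± 0.077 (1.46-fold; adjusted p = 0.0165, limma). A second Fdft1 probe gave the same difference, 0.55, and within the rows of the slide the difference was 0.60 and 0.58. The call was lost when DKO replicate 1, 2 or 3 or control replicate 4 was left out, the highest adjusted p being 0.0638 by limma, while the difference stayed between 0.51 and 0.58 over all 7 such fits. Fdft1 also did not pass under normexp background correction or with all probes kept.

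Beyond squalene the pattern turned back. Squalene epoxidase (Sqle), a rate-limiting oxygenation, read 7.67, 7.14, 7.39 and 7.13 in controls and 6.92, 6.91 and 6.90 in DKO arrays. The DKO arrays were almost identical to each other and below a control group that spread widely, with a difference of -0.42 ± 0.14 (adjusted p = 0.125, limma). Lanosterol synthase (Lss) overlapped between groups (-0.13 ± 0.10). A second, dimmer Lss probe, well above background on 3 control and 2 DKO arrays, did not (-0.24 ± 0.075, adjusted p = 0.113 over probes, limma). Cyp51, the demethylase that acts on lanosterol, read 8.81, 8.69, 8.77 and 8.61 in controls and 8.07, 8.24 and 8.54 in DKO hearts. It was lowest in DKO replicate 1, and DKO replicate 3 lay just below the lowest control; the difference was -0.44 ± 0.12 (adjusted p = 0.0898, limma). Tm7sf2, a sterol reductase that acts after Cyp51, read 8.39, 8.39, 8.60 and 8.51 against 8.25, 8.06 and 7.98. Its difference of -0.38 ± 0.10 had the smallest adjusted p among the lower sterol enzymes, 0.0743 (limma).

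Of the enzymes that strip the methyl groups, Hsd17b7, the keto-reductase, had the largest difference of the 17, -0.59 ± 0.20. Its controls were spread over 11.14, 11.10, 10.67 and 10.52 and overlapped the DKO values of 10.57, 10.16 and 10.07. On a second, dimmer Hsd17b7 probe the groups did not overlap (-0.48 ± 0.14, adjusted p = 0.103 over probes, limma). Nsdhl, a dehydrogenase of the same methyl removal, read 7.35, 7.61, 7.40 and 7.56 in controls and 7.26, 7.27 and 7.17 in DKO arrays, lower throughout (-0.25 ± 0.089; adjusted p = 0.145, limma). The methylsterol oxidase Msmo1 and the desaturase Sc5d were also lower in every DKO array, with small differences of -0.12 ± 0.064 and -0.061 ± 0.067. On a second, dimmer Msmo1 probe the groups overlapped (-0.048 ± 0.071). Dhcr7, the last reductase on the way to cholesterol, overlapped (-0.11 ± 0.12). Ebp, the sterol isomerase, was the other enzyme on the high side, at 12.32, 11.87, 12.05 and 12.16 in controls and 12.44, 12.39 and 12.48 in DKO hearts. The DKO arrays exceeded the highest control by little, and the difference of 0.34 ± 0.11 had an adjusted p of 0.128 (limma). On a second, dimmer Ebp probe the groups overlapped (0.27 ± 0.11).

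**Figure D2:**
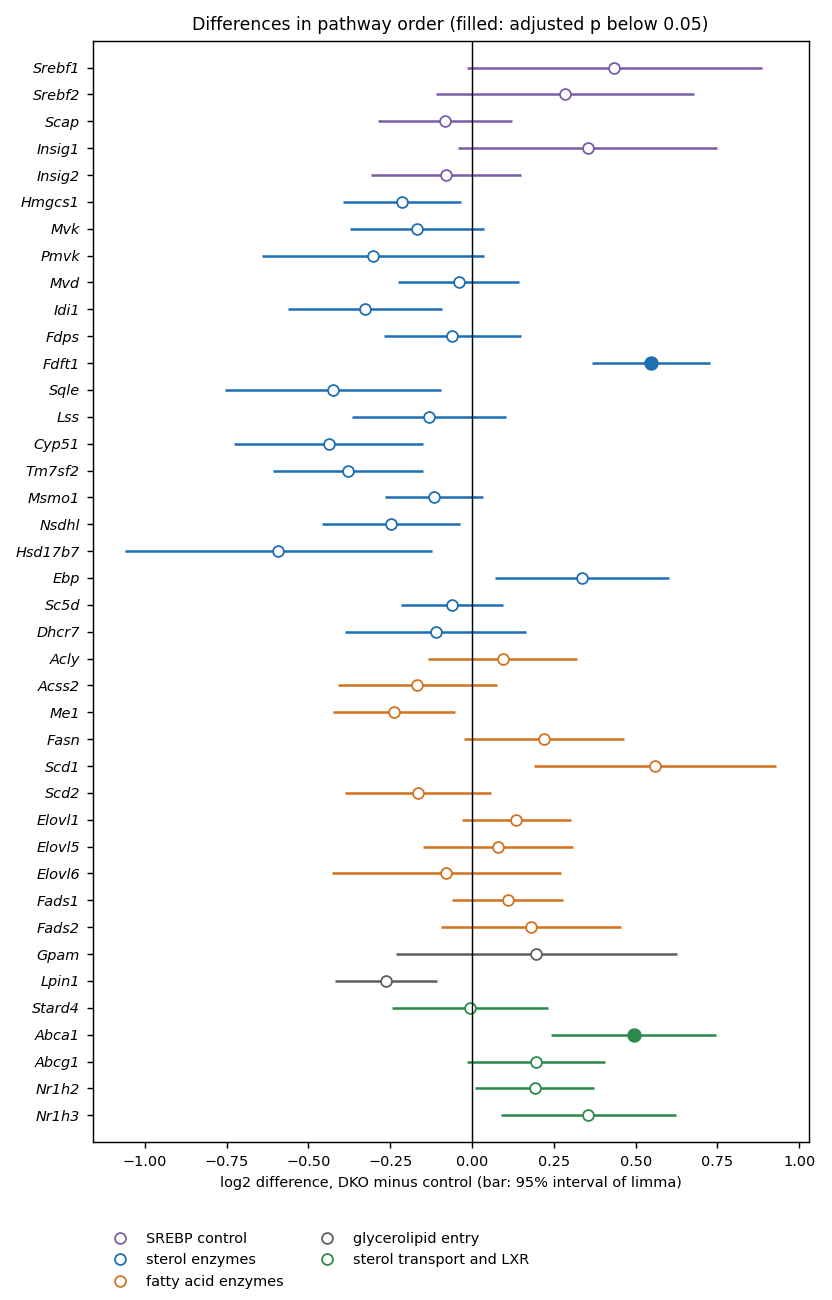
Log2 difference, DKO minus control, for each of the 40 measured genes in pathway order (points) with its 95% interval from limma (bars), coloured by role; filled points have an adjusted p below 0.05. Fdft1 and Abca1 are the filled points, and 15 of the 17 blue sterol enzyme points lie left of 0.

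The intervals in that plot show how large a change the design leaves possible. The 95% interval of Cyp51 ran from -0.73 to -0.15 and that of Tm7sf2 from -0.61 to -0.15, both below 0 before adjustment. For Fdps it ran from -0.27 to 0.15 and for Mvd from -0.23 to 0.15, so the values allow changes within those ranges in either direction.

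The stretch of 250 bases before the annotated start was read for the 33 genes with a promoter entry in RefSeq GRCm38.p6, among them 15 sterol enzymes, because SREBP and its partner factors are known to act on these promoters. Both strands were searched for CCAAT, the box bound by NF-Y, a known partner of SREBP; for the E-box CACGTG; and for TCACNCCAC, letters of the classical sterol regulatory element. CCAAT was present in 14 of the 15 sterol enzyme genes, the exception being Acat2, and in 5 of 8 fatty acid enzyme genes, beside 37.5% of all 27025 genes and 33.8% of all 32851 promoters. The E-box was found in 7 of the 33 genes (21.2%) beside 6.86% of all genes. The sterol regulatory letters were found in Hmgcs1 alone among the 33, beside 1.22% of all genes. No match overlapped a match of another of these motifs. CCAAT was also present in the promoter of Ebp, which stood on the other side from its neighbours, so its presence did not separate the directions. The sequences of 4 sterol enzyme promoters are shown to set this beside the values above, 3 from the lower genes and Ebp. In GRCm38.p6 they lie at chr13:119690101-119690350 on the plus strand (Hmgcs1), chr5:4104698-4104947 on the minus strand (Cyp51), chr19:6067851-6068100 on the minus strand (Tm7sf2) and chrX:8193513-8193762 on the minus strand (Ebp). Each is 5′ to 3′ on the gene's strand, and capitals mark motif matches (ATTGG is CCAAT on the other strand).
Hmgcs1: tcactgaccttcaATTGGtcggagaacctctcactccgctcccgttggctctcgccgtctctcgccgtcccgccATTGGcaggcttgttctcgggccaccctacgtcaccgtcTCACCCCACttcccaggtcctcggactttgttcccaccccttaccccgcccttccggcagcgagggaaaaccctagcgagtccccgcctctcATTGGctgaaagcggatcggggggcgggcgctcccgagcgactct
Cyp51: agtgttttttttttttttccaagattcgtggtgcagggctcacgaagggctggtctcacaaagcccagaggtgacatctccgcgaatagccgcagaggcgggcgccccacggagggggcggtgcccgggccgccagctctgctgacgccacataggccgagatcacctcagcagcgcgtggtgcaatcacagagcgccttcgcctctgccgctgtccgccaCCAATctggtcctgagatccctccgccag
Tm7sf2: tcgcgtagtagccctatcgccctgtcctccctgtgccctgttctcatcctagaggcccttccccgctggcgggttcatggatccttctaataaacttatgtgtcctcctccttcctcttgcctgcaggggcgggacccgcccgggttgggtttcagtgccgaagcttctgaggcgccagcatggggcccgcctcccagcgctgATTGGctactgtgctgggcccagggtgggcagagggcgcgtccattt
Ebp: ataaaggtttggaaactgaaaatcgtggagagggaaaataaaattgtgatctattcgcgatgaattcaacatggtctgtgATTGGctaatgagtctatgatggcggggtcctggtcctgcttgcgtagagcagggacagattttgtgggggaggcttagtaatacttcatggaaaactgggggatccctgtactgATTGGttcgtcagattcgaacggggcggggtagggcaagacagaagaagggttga
The Hmgcs1 stretch holds 3 CCAAT boxes and the sterol regulatory letters, the Ebp stretch 2 CCAAT boxes, and the Cyp51 and Tm7sf2 stretches 1 each. A match describes letters in the window and was not tested as a binding site, and promoters of Fdps, Fdft1 and Sqle were not analysed here.

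Of the 11 enzymes of fatty acid synthesis 7 had a higher and 4 a lower mean in the DKO hearts, and none passed the adjusted test; at an unadjusted p below 0.05 there was 1 in each direction, 18.2% beside 25.5% of all genes. The 7 higher are 63.6% of the 11, beside 46.9% of all genes and 54.1% of those with a symbol. Their median difference over the 11 was 0.093, beside -0.020 over all genes and 0.023 over those with a symbol. Groups did not overlap for Scd1 and Elovl1, which were higher, and for Me1, which was lower, 27.3% of the 11 beside 25.7% of all genes. The unadjusted and the non-overlap shares were near or below the background.

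Scd1 and Scd2 encode desaturases that turn saturated into monounsaturated fatty acids, and their values went different ways. Scd1 read 7.49, 7.66, 7.80 and 7.88 in control hearts and 8.53, 8.31 and 7.96 in DKO hearts. DKO replicate 3 was only just above the highest control, and the difference of 0.56 ± 0.16 had an adjusted p of 0.0906 (limma). Within the rows of the slide it was 0.23 and 0.76. Scd2 read 10.87, 10.82, 10.97 and 10.94 against 10.70, 10.91 and 10.59, with overlapping groups and a difference of -0.16 ± 0.095 (adjusted p = 0.319, limma).

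Of the enzymes that supply carbon and reducing power, ATP-citrate lyase (Acly) stood at 0.093 ± 0.10 and acetyl-CoA synthetase (Acss2) at -0.17 ± 0.10, both with overlapping groups. On a second, dimmer Acss2 probe the groups did not overlap (-0.31 ± 0.10, adjusted p = 0.122 over probes, limma). Malic enzyme (Me1), a source of NADPH, read 12.73, 12.94, 12.78 and 12.79 in controls and 12.51, 12.63 and 12.57 in DKO arrays. It was lower in all 3 DKO arrays, with a difference of -0.24 ± 0.079 (adjusted p = 0.125, limma). Fatty acid synthase (Fasn), which builds palmitate, read 12.10, 11.70, 11.84 and 11.83 in controls and 12.09, 12.12 and 12.04 in DKO hearts. Only control replicate 1 reached the DKO values, and the difference was 0.22 ± 0.10 (adjusted p = 0.236, limma).

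The elongase Elovl1 was a little higher in every DKO array (0.14 ± 0.071; adjusted p = 0.277, limma). The elongases Elovl5 and Elovl6 stood at 0.078 ± 0.10 and -0.078 ± 0.15, and Elovl6 changed sign under quantile normalization. The front-end desaturases Fads1 and Fads2, which make polyunsaturated fatty acids, stood at 0.11 ± 0.072 and 0.18 ± 0.12. All 4 overlapped between the groups.

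**Figure D3:**
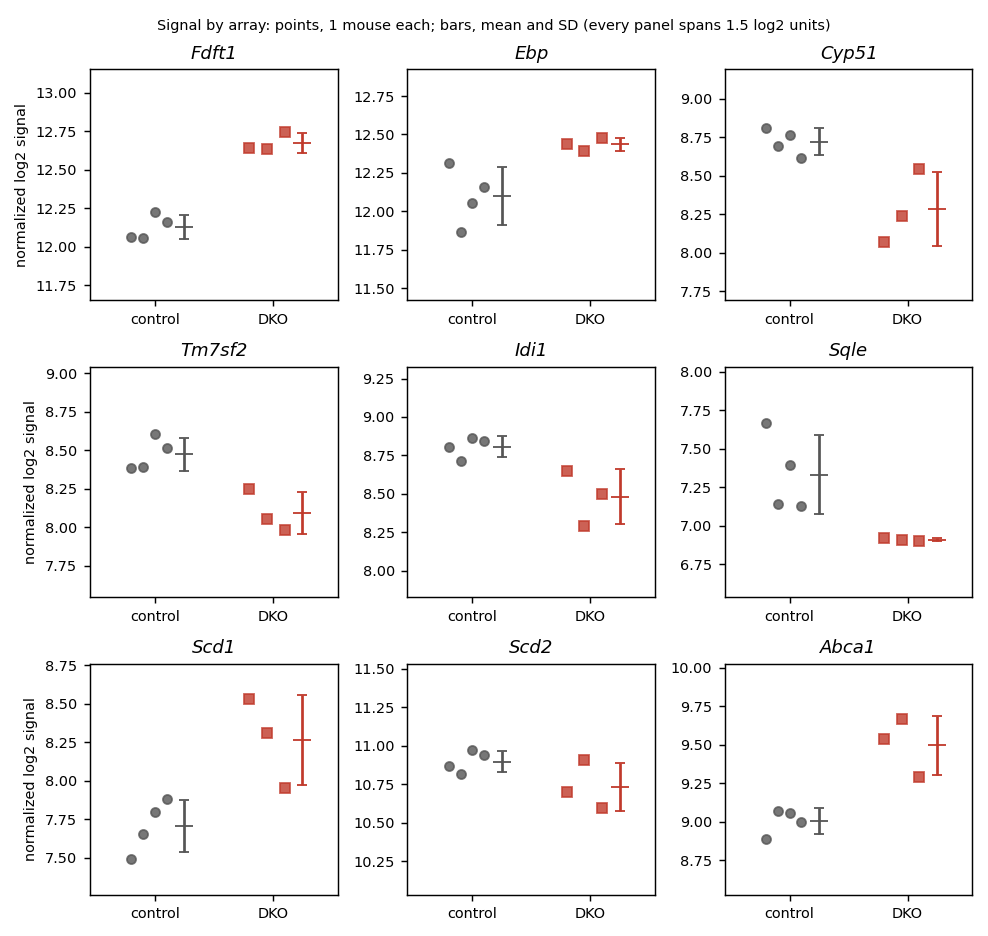
Normalized log2 signal of 9 genes in each control (grey circles) and DKO (red squares) mouse, with the mean and SD of each group beside the points; every panel spans 1.5 log2 units. DKO points lie above the controls for Fdft1, Ebp, Scd1 and Abca1 and below them for Cyp51, Tm7sf2, Idi1 and Sqle, while Scd2 overlaps.

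Set side by side in each mouse, the branches parted in the DKO hearts. For each array the median over a branch of the log2 signal minus each gene's control mean was taken. Controls lie near 0 by construction, since each control is part of that mean. Their spread around 0 is therefore narrower than the noise of a DKO array and is no yardstick for the DKO values. The sterol enzyme median was 0.0035, -0.029, 0.022 and -0.020 in control replicates 1 to 4 and -0.20, -0.21 and -0.12 in DKO replicates 1 to 3. The fatty acid enzyme median was -0.032, -0.050, 0.064 and -0.017 in the controls and 0.11, 0.15 and 0.036 in the DKO hearts. The sterol medians of the groups did not overlap, whereas the fatty acid median of DKO replicate 3 lay below that of control replicate 3. The sterol minus fatty acid gap was -0.31, -0.36 and -0.16 in the DKO arrays and between -0.042 and 0.035 in the controls. Of the 17 sterol enzymes, 3, 2 and 3 were above their control mean in DKO replicates 1 to 3, and 10, 7, 10 and 8 in control replicates 1 to 4. Of the 11 fatty acid enzymes, 6, 8 and 6 were above it in the DKO arrays and 3, 4, 8 and 5 in the controls, so these counts overlapped between the groups.

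**Figure D4:**
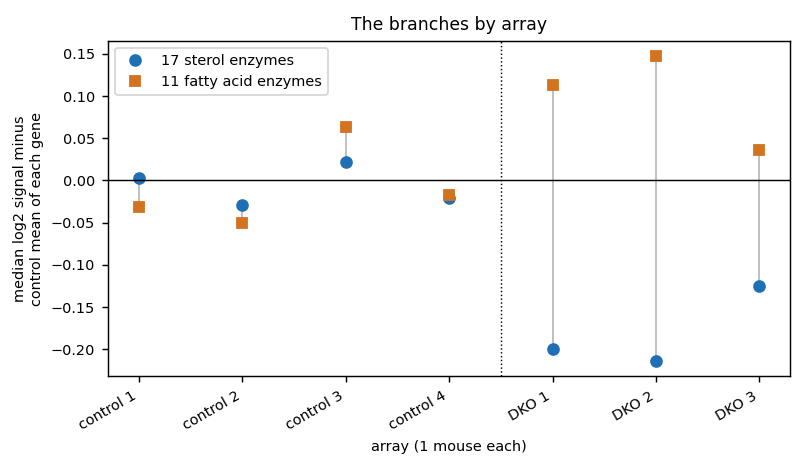
Median over 17 sterol enzymes (blue circles) and over 11 fatty acid enzymes (orange squares) of the log2 signal minus each gene's control mean, for each array; grey lines join the medians of 1 array. The medians are between -0.050 and 0.064 in the controls and part in every DKO array, most in replicate 2 and least in replicate 3.

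The slide held its arrays in 2 rows, and within row 1 (control replicates 1, 3 and 4 with DKO replicate 3) the sterol median difference was -0.13 and the fatty acid one 0.041, while within row 2 (control replicate 2 with DKO replicates 1 and 2) they were -0.20 and 0.13. The directions of both branches were thus the same in each row. These medians are descriptions of the listed genes and carry no test.

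The genes that control SREBP did not pass the test, and none of the 5 had groups that did not overlap. Srebf1, which encodes SREBP-1a and SREBP-1c, read 12.14, 11.50, 11.65 and 11.87 in controls and 12.56, 12.09 and 12.02 in DKO hearts. DKO replicate 1 was highest of all arrays, but control replicate 1 exceeded DKO replicates 2 and 3, and the difference of 0.44 ± 0.19 had an adjusted p of 0.209 (limma); within the slide rows it was 0.13 and 0.82. The probe does not tell the SREBP-1 forms apart here. Srebf2 read 6.94, 7.15, 6.83 and 7.25 against 6.98, 7.57 and 7.43, a difference of 0.28 ± 0.17 (adjusted p = 0.330, limma).

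Insig1, itself a known SREBP target that closes the feedback loop, read 6.34, 6.08, 6.27 and 6.02 in controls and 6.50, 6.88 and 6.21 in DKO arrays. Its DKO values spread over more than its control values, with replicate 2 highest and replicate 3 inside the control range, and the difference was 0.35 ± 0.17 (adjusted p = 0.238, limma). Insig2 stood at -0.079 ± 0.10, and it was the only one of 18 genes with several kept probes whose probes disagreed in direction (-0.079, -0.13 and 0.094). The sterol sensor Scap stood at -0.082 ± 0.087. The 3 genes of this group with higher means, Srebf1, Srebf2 and Insig1, had intervals that included 0.

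At the entry to glycerolipids, Lpin1, the phosphatidate phosphatase lipin 1, read 12.20, 12.27, 12.20 and 12.30 in control hearts and 12.00, 11.99 and 11.95 in DKO hearts. Both groups were tight and did not overlap, and the difference of -0.26 ± 0.066 had an adjusted p of 0.0710 (limma). It passed with a variance trend in the eBayes step (adjusted p = 0.0277) and with array weights (0.0479), both by limma. On the dimmer Lpin1 probes, at -0.31 ± 0.12 and -0.24 ± 0.11, the groups overlapped. Gpam, the mitochondrial acyltransferase that makes lysophosphatidate, read 13.09, 13.92, 13.65 and 13.56 against 13.78, 13.69 and 13.78. Control replicate 1 was far below and control replicate 2 above the DKO arrays, which agreed closely, and the difference was 0.20 ± 0.18. A second, dimmer Gpam probe read 6.69, 6.56, 6.18 and 6.29 in controls and 6.95, 6.95 and 6.91 in DKO arrays, without overlap, a difference of 0.50 ± 0.13 (adjusted p = 0.0776 over probes, limma).

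Of the 5 genes of sterol transport and LXR, 4 were higher in the DKO hearts and Abca1 passed the test. Abca1 exports cholesterol to apolipoprotein acceptors and is a textbook LXR target. It read 8.89, 9.07, 9.06 and 9.00 in controls and 9.54, 9.67 and 9.29 in DKO hearts. All DKO arrays were above all controls, and Abca1 rose by 0.49 ± 0.11 (1.41-fold; adjusted p = 0.0499 over genes and 0.0513 over probes, limma). The call therefore sits at the threshold: it remained in 1 of 7 fits that left out an array, that without DKO replicate 3, with differences from 0.41 to 0.60 and an adjusted p up to 0.142 (limma). It was also lost with slide row as a block (adjusted p = 0.105), normexp (0.0766), no filter (0.179) and robust eBayes (0.0521), all by limma, with differences from 0.41 to 0.49. A dimmer Abca1 probe was not well above background on any control array and was above it on all 3 DKO arrays, through which alone it passed the filter. For that probe the DKO mean was at least 1.89-fold higher, taking the lowest signal well above background as the bound in controls; since its selection fixed this direction, the value is a description and no support for the call.

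The receptors were also on the high side. Nr1h3, which encodes LXRα, read 10.80, 10.86, 10.51 and 10.53 in controls and 11.09, 11.06 and 10.93 in DKO arrays. Every DKO array was higher, by 0.35 ± 0.11 (adjusted p = 0.117, limma), and a second probe gave 0.55 (adjusted p = 0.0764 over probes, limma). Nr1h2 encodes LXRβ and lies on chromosome 7 like Akt2, 191 tested genes away. It read 12.67, 12.81, 12.69 and 12.68 against 12.84, 13.00 and 12.87, again without overlap (0.19 ± 0.078, adjusted p = 0.182, limma). On a second, dimmer Nr1h2 probe the groups overlapped (0.24 ± 0.12). Of the other members, Dhcr7 also lies on chromosome 7, 906 tested genes from Akt2, and Lpin1 on chromosome 12, 423 tested genes from Akt1. The exporter Abcg1 read 8.29, 8.39, 8.43 and 8.35 in controls and 8.40, 8.58 and 8.70 in DKO hearts, where DKO replicate 1 lay inside the control range (0.20 ± 0.089; adjusted p = 0.222, limma). Stard4, which carries cholesterol between membranes, stood at -0.0068 ± 0.10 and changed sign under quantile normalization, median centring and normexp.

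The promoters of Abca1, Srebf1 and Fasn, a known LXR target group, are shown because they share letters found in few other promoters. The letters TGACCGNNNNTAACC, written to match an element seen in the Abca1 stretch, so that its own match is by construction, were found in 4 of 32851 promoters (0.0122%): those of Abca1, Fasn, Srebf1 and Prrg4. In GRCm38.p6 the stretches lie at chr4:53159896-53160145 on the minus strand (Abca1), chr11:60210472-60210721 on the minus strand (Srebf1) and chr11:120824548-120824797 on the minus strand (Fasn), all before the start of the gene. Capitals again mark all motif matches.
Abca1: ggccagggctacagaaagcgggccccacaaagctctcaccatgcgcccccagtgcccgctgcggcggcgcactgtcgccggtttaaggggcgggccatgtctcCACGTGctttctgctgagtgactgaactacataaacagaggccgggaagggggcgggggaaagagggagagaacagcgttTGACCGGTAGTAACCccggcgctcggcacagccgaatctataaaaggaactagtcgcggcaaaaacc
Srebf1: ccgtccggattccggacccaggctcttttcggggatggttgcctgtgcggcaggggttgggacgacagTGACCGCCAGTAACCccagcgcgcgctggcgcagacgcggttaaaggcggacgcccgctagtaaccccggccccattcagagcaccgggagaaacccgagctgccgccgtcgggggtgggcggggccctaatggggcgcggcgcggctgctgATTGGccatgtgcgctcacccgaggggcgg
Fasn: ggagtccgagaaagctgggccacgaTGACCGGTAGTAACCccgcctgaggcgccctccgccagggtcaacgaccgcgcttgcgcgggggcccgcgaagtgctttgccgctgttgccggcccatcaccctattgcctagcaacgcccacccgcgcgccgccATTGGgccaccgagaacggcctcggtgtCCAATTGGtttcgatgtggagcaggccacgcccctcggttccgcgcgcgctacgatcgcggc
Relative to the annotated start the element spans -67 to -53 in Abca1, -182 to -168 in Srebf1 and -225 to -211 in Fasn. The differences of the 3 genes were 0.49, 0.44 and 0.22, of which that of Abca1 passed the test. That of Prrg4 is not given here, and a link between the letters and the differences was not tested. No CCAAT box was found in the 4 promoters of the 3 sterol transport and LXR genes that had an entry.

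Genes next to these pathways were read from lists of related genes. Of 14 genes of isoprenoid side branches and late sterol synthesis none passed (limma); 10 were higher and 4 lower, with a median of 0.11. Pdss1, which makes the ubiquinone side chain, stood at -0.57 ± 0.14 (adjusted p = 0.0617) and Dhdds, of dolichol synthesis, at -0.29 ± 0.084 (adjusted p = 0.0958, limma). Lbr, a sterol reductase that also acts after lanosterol, stood at 0.15 ± 0.10.

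Of 12 genes of SREBP processing and turnover 1 fell, Fbxw7, which encodes the ubiquitin ligase subunit known to target nuclear SREBP for degradation. That 1 call is 8.33% of the list, beside 4.70% of all genes called in either direction and 2.29% called lower. The log2 signal of Fbxw7 was 11.98, 11.92, 11.63 and 12.04 in controls and 11.26, 11.34 and 11.16 in DKO hearts. It was lower in every DKO array and fell, with a difference of -0.64 ± 0.12 (adjusted p = 0.0322, limma). Erlin2, which binds INSIG proteins in the degradation of sterol enzymes, stood at -0.40 ± 0.093 (adjusted p = 0.0615, limma). The proteases that cut SREBP, Mbtps1 and Mbtps2, stood at 0.026 ± 0.063 and 0.15 ± 0.11. Over the list 7 genes were higher and 5 lower, with a median of 0.018. The differences ran from -0.69, in a gene that did not pass, to 0.19.

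Of 20 LXR targets, partners and sterol-handling genes 2 rose and 1 fell, 15% beside 4.70% of all genes, with a median of 0.091. Lipa, the lysosomal acid lipase that frees cholesterol and fatty acids from esters, read 9.44, 9.54, 9.60 and 9.64 in controls and 10.27, 10.51 and 10.43 in DKO hearts. It rose by 0.84 ± 0.091 (adjusted p = 0.00886, limma). Cyp7b1, an oxysterol hydroxylase, rose by 0.35 ± 0.076 (adjusted p = 0.0487), and Rxrg, a retinoid X receptor and so a possible LXR partner, fell, with a difference of -0.48 ± 0.081 (adjusted p = 0.0268, limma). Mylip, a ubiquitin ligase and LXR target, stood at 0.43 ± 0.12 (adjusted p = 0.0815, limma). Over the list 13 genes were higher and 7 lower. At an unadjusted p below 0.05 by limma, 5 were higher and 4 lower, 45% beside 25.5% of all genes. Rxrb, another retinoid X receptor, stood at 0.26 ± 0.068 (adjusted p = 0.0734) and Osbpl1a at -0.30 ± 0.078 (adjusted p = 0.0744, limma). Also on the low side were Stard5 (-0.30 ± 0.10) and Ch25h (-0.41 ± 0.13).

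Of 27 measured genes of fatty acid and glycerolipid metabolism outside the main list 3 rose and 1 fell, 14.8% beside 4.70% of all genes, with a median of -0.017. Over the list 12 were higher and 15 lower, and the lowest difference, -0.74, was in a gene that did not pass. Their summed signal on the linear scale, in which bright genes weigh most, was lower in every DKO array. It was 178713 to 195685 in controls and 141754 to 164919 in DKO arrays. Acaca, the acetyl-CoA carboxylase that commits carbon to fatty acid synthesis, read 9.66, 9.68, 9.54 and 9.50 in controls and 10.07, 10.23 and 9.89 in DKO hearts and rose by 0.47 ± 0.10 (adjusted p = 0.0487, limma). Acacb, its mitochondrial relative known to control fatty acid entry into mitochondria, stood at 0.038 ± 0.092. Lpin3, a relative of Lpin1, rose by 0.55 ± 0.074 (adjusted p = 0.0150), while Lpin1 itself was on the low side as given above. The acyl-CoA synthetase gene Acsl3 rose by 0.44 ± 0.078 (adjusted p = 0.0299, limma). Mid1ip1, whose product is known to activate acetyl-CoA carboxylase, read 13.41, 13.43, 13.52 and 13.42 against 12.47, 12.85 and 12.95 and fell, with a difference of -0.69 ± 0.12 (adjusted p = 0.0313, limma). Mlxipl, which encodes the glucose-responsive factor ChREBP, was higher in every DKO array (0.51 ± 0.12; adjusted p = 0.0646, limma).

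Markers of other cell types were read beside these genes, since adipocytes and macrophages also make or export sterols and fatty acids. Of 11 white adipocyte markers 7 were measured and none passed the test. At an unadjusted p below 0.05 by limma, 5 were higher, Car3 among them, and 1 lower, 85.7% beside 25.5% of all genes. Groups did not overlap for 3 that were higher and 1 that was lower, 57.1% beside 25.7% of all genes. The median difference of the 7 was 0.31. Their summed signal on the linear scale was 191581 to 206542 in the controls and 234158 to 266642 in the DKO arrays. Most of that sum came from Lpl and Fabp4, which cells other than adipocytes also express. Pparg, Cfd and Lep were measured above background in every mouse, with differences of 0.31 ± 0.086, 1.04 ± 0.44 and -0.070 ± 0.15. Car3 was above it on 1 control and 3 DKO arrays, which alone could carry it through the filter, and differed by 1.91 ± 0.71; Cidea was lower (-0.36 ± 0.11). Plin1 was not well above background on any array, Adipoq and Retn were on 1 and Cidec on 2, and Ucp1 of brown fat was on none. All 10 macrophage markers were measured and none passed, with summed signals of 19424 to 22034 in controls and 18877 to 24890 in DKO arrays. All 8 endothelial markers were higher in the DKO arrays (median 0.19) and none passed. Over all genes 46.9% were higher, and 54.1% of those with a symbol. Other cell types leaned the same way without a call. Higher in the DKO arrays were 7 of 8 fibroblast, 6 of 7 measured Schwann cell and 7 of 10 macrophage markers. So were all 5 measured erythroid and platelet markers. Of 8 mural markers 6 were higher and 2 lower in the DKO arrays (median 0.27), and groups did not overlap for 5 of the higher ones, beside 13.2% of all genes. Among them the smooth muscle myosin gene Myh11 rose (0.63 ± 0.14; adjusted p = 0.0487, limma), while the smooth muscle actin gene Acta2 stood at -0.41 ± 0.14 (adjusted p = 0.128, limma). The part of these cell types in the values above was not tested.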

How the data were processed

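RNA of 7 heart apices, 4 control and 3 DKO, was hybridised to Agilent arrays of design 074809, each from a separate mouse. The deposited files hold each spot's processed signal, a linear intensity that had been background-subtracted in Feature Extraction 12.0.3.1 (protocol GE1_1200_Jun14, probe positions on mm9), per the file headers. The authors' deposited table holds log2 values, which matched quantile-normalized values centred on each probe's median; the program used for this was not named in the labels or headers.

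Control spots and outlier flags were left out. Each array's 75th percentile was subtracted from log2(processed signal) and their mean over arrays, 9.14, restored the scale. Probes were named through their accession and the RefSeq gene table of GRCm38.p6 (32994 of 56605). The brightest probe well above background on at least 3 arrays represented each of 23678 genes. DKO and control were compared in limma 3.58.1 (R 4.3.3; lmFit and eBayes, two-sided) with Benjamini-Hochberg adjustment and a threshold of 0.05. The fit was tested on simulated data. Promoters came from RefSeq GRCm38.p6, 250 bases before each start.

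The members and lists were chosen with earlier results of these data known. All members were named; of the related lists, called genes and up to 2 with the smallest p were named, others as examples chosen after their values were seen. Alternatives covered scaling, background correction (normexp, offset 50, on the median spot signal, since the files used here carry no mean signal), filters, the authors' values, probe choice, variance settings, array weights, blocks for replicate number or for slide row, and each array left out.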

Additional observations from a re-analysis of the deposited data

Results flagged for a closer look

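Among 42 sets of 4 control values (40 genes and the medians of 2 branches), 2 had 1 array that stood apart from the others; chance flags about 1 in 20 groups. Scap was low in control replicate 1, at a log2 signal of 11.94, with a gap to the nearest control of 0.856 of the group's range. Nr1h2 was high in control replicate 2, at 12.81, with a gap of 0.889 of the range. Neither gene passed the test between the groups (limma).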

How the results depend on the processing

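The 2 calls among the members became 0 with normexp or with no filter, and 1, Fdft1, with robust eBayes or with slide row as a block, which lost Abca1; leaving out an array gave 0 to 1. Over all genes, the 1114 calls became 549 with normexp, 121 with no filter, 2007 with a variance trend, 1680 with array weights and 288 with slide row as a block, and 160 to 1127 when an array was left out. The sterol enzyme median of -0.17 became -0.14 with normexp and -0.14 with slide row as a block, and lay between -0.21 and -0.14 when an array was left out. The fatty acid median stayed positive in every alternative run. With the replicate block (replicates 1 to 3), there was 1 call over all genes and 0 among members, and the sterol median was -0.19; same-numbered arrays deviated together with r of 0.13, 0.0069 and 0.033, so the numbers were not taken as pairs.

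Under the alternatives, 762 member values kept direction and side of the threshold, 18 lost a call, 2 gained one (both Lpin1) and 18 changed sign, all near 0. Under quantile normalization these were Elovl6 (0.022), Lss (0.00079), Mvd (0.0074) and Stard4 (0.025), and in the authors' deposited table the same 4 (0.023, 0.0016, 0.0085 and 0.026). Stard4 changed sign with median centring (0.00076), normexp (0.0072), slide row as a block (0.067), without DKO replicate 1 (0.089, against -0.094 without DKO replicate 3) and without control replicate 3 (0.018). Elovl6 did so with array weights (0.00058), without DKO replicate 3 (0.037) and without control replicate 1 (0.011), Mvd without control replicate 3 (0.0041; from -0.067 when other arrays were left out), and Insig2 with its dimmer probe (0.094), an alternative chosen after seeing the data. The cause of these changes was not tested. Without control replicate 2, 34.1% of all calls were rises, beside 51.3% with all arrays.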
